A study of Mus musculus with 21 samples.

Results

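Tumours of mice fed silibinin (Sil) were set against tumours of mice fed indole-3-carbinol (I3C) in all genes of a count table, 3 libraries against 3 of the 21 in the series, chosen by the treatment the labels give. All the mice were female A/J. The tumours had been started with 1 intraperitoneal dose of 100 mg/kg NNK, a tobacco nitrosamine, and the lungs were then inflamed with LPS, a bacterial endotoxin, at 5 µg per mouse into the nose each week, beginning 1 week after NNK. The Sil group ate 20 µmol of silibinin and the I3C group 20 µmol of indole-3-carbinol per g of diet, so the doses were matched in moles. Lung tissue was taken at week 22. Levels are also given for tumours of mice that ate both agents at these doses (Sil_I3C) and for tumours of mice on neither agent (NNK_LPS), 3 libraries each, all given NNK and LPS alike. The RNA came from dissected tumours pooled from 3 mice per group, per the labels' protocols. Nothing in the labels ties a library to a mouse, so p-values measure the spread between libraries, which may be technical.

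Indole-3-carbinol comes from cruciferous vegetables, and in stomach acid it condenses to products that bind the aryl hydrocarbon receptor (AhR). On binding a ligand AhR enters the nucleus, pairs with ARNT and acts at DNA elements with the core GCGTG, where it induces its best-known target, Cyp1a1, and represses itself through the induced repressor gene Ahrr. Silibinin is a flavonolignan of milk thistle. A second transcription factor, NRF2 (gene Nfe2l2), is held by KEAP1 until electrophiles or oxidants release it, and acts through antioxidant elements on genes of glutathione and quinone metabolism. In lung these enzymes activate and clear inhaled and dietary chemicals, tobacco carcinogens among them.

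Total counts were 16.2 to 17.2 M in the Sil libraries and 15.9, 22.8 and 24.7 M in I3C 1, 2 and 3. Sil 3 stood apart from the other 5 libraries on the first principal component, which held 47.6% of the variance, at 66.2 against -29.2 to -3.29. Its summed erythroid and platelet genes were 9249 CPM (a read count scaled to the normalised library size), against 2246 and 1296 CPM in Sil 1 and 2 and 1730, 2798 and 2671 CPM in I3C. Counts of mt-Atp8 divided by those of mt-Atp6, its overlapping mitochondrial neighbour, placed Sil 1 to 3 (0.0829, 0.0876 and 0.0794) and I3C 1 (0.0826) in a set apart from I3C 2 and 3 (0.123 and 0.117). The Sil_I3C libraries (0.120, 0.135 and 0.129) fell with I3C 2 and 3, and the NNK_LPS libraries (0.0804, 0.0832 and 0.0782) with Sil. The labels give no batch, and this split is taken from the counts alone. Lung epithelium was represented in all 6 libraries: Sftpc, the surfactant protein of alveolar type 2 cells, averaged 26956 CPM in Sil and 18246 CPM in I3C.

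The question put to the data was which genes tell tumours of the 2 diets apart. Of 15770 genes tested, 12 differed at an adjusted p under 0.05 (called), 0.0761% of the total. All 12 were lower in Sil than in I3C and none was higher. In each of the 12 every Sil library lay below every I3C library (separated downwards), as in 7.33% of all genes. A call on the same libraries makes such separation likely, so it is no separate support. Of the 12, 11 are described here: Cyp1a1, Ces1g, Nqo1, Ces1f, Aldh3a1, Gpx2, Tsku, Ugt1a6b, Gstm1, Entpd5 and Gsta3, most of them enzymes that oxidise, hydrolyse, reduce or conjugate foreign chemicals. Of the 12, 8 were at least 2-fold lower. Differences are log2 fold changes of Sil over I3C with their standard errors, from edgeR's quasi-likelihood test with Benjamini-Hochberg adjustment over all genes tested, n = 3 libraries a group.

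The remaining genes were not called, which does not show that they were alike. The 95% interval of the difference lay within 2-fold either way for 12740 genes (80.8%). At an unadjusted p under 0.05 there were 762 genes higher (4.83%) and 916 lower (5.81%) in Sil, and DESeq2 called 22 higher and 64 lower, among them all of the 12. A fit to the 6 Sil and I3C libraries alone called 0 genes by edgeR, with 979 at an unadjusted p under 0.05. Nqo1 had the smallest adjusted p there, 0.0583.

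**Figure D1:**
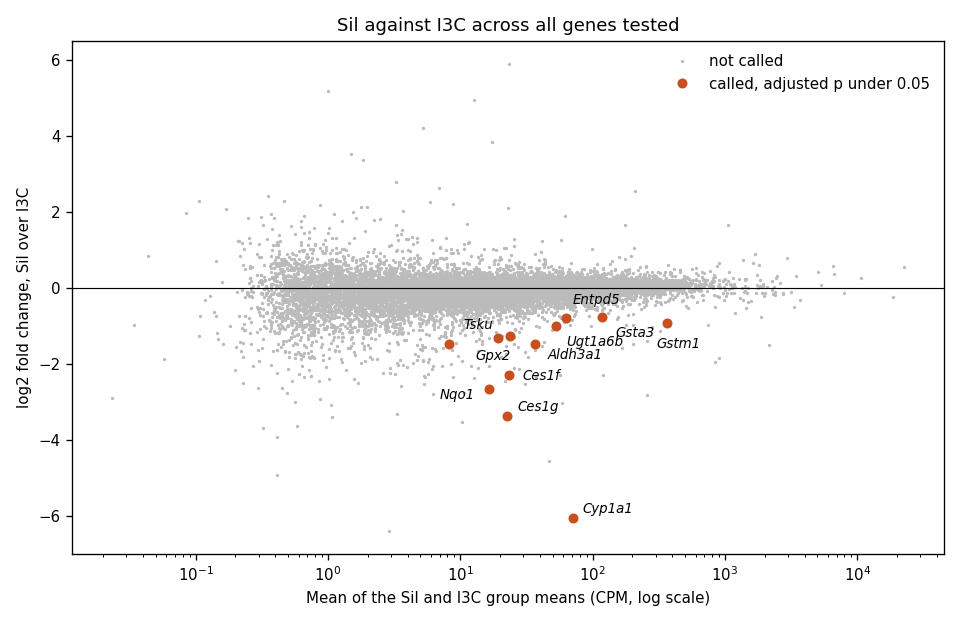
Difference between diets against level for all 15770 genes tested: the x axis is the mean of the Sil and I3C group means in CPM on a log scale, the y axis the log2 fold change of Sil over I3C. The 12 called genes (orange, 11 of them named) all lie below 0, from -0.77 for Gsta3 to -6.04 for Cyp1a1.

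Promoters were read for the called genes, because several are textbook targets of AhR or NRF2. RefSeq sequences (GRCm38.p6), which run from 250 bases before to 50 after a transcript start, were given for 8 of the 12 genes, 10 promoters in all. Aldh3a1, Ces1f and Ugt1a6b were among those with no entry. Printed here are those of Cyp1a1 (the largest difference), Nqo1 (the smallest adjusted p), Entpd5 (the most AhR core matches) and Gsta3 (the 1 antioxidant core match), each 5′ to 3′ on the gene's strand, with matches to GCGTG or TGACNNNGC on either strand in capitals (CACGC is GCGTG on the other strand).
Cyp1a1, chr9:57697363-57697662, plus strand: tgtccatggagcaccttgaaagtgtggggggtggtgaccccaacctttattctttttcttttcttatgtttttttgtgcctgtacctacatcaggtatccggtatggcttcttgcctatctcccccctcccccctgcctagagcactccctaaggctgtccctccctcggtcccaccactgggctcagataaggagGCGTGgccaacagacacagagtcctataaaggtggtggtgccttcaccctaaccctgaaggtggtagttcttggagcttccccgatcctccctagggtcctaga
Nqo1, chr8:107403156-107403455, minus strand: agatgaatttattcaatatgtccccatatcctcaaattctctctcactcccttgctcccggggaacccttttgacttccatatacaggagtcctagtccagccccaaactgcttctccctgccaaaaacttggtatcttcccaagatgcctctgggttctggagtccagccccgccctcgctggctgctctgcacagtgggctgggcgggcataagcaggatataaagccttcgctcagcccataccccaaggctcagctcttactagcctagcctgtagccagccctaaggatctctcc
Entpd5, chr12:84408980-84409279, minus strand: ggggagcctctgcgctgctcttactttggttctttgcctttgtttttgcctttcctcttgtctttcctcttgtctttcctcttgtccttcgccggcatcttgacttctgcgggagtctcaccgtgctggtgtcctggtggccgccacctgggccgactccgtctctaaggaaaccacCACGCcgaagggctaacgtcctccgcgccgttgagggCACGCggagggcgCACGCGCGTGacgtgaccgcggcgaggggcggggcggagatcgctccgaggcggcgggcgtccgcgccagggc
Gsta3, chr1:21240335-21240634, plus strand: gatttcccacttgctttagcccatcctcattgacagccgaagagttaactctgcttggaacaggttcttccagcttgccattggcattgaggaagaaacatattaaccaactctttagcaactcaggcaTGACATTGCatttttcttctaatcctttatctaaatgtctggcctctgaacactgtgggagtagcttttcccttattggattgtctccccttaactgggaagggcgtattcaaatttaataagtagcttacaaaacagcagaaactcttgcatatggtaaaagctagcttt
GCGTG was found in 5 of the 10 promoters, belonging to 4 genes, Cyp1a1, Gstm1, Tsku and Entpd5, against 32.4% of all 32851 RefSeq promoters. In Cyp1a1 it began 54 bases before the start. Entpd5 held 4 matches, at 73, 36, 23 and 18 bases before its start, and the last 2 lie end to end. The 2 Gstm1 promoters overlap and share 1 match. TGACNNNGC was found in 1 of the 10, that of Gsta3 at 121 bases before the start, against 12.4% of all promoters. Neither motif was in the Nqo1, Ces1g or Gpx2 windows, which says nothing of elements outside them. A match is a run of letters and not a measured binding site.

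Cyp1a1, the monooxygenase that oxidises polycyclic aromatic hydrocarbons (chromosome 9, 57687928 to 57703824, GRCm38), stood at 1.11, 3.58 and 1.61 CPM in Sil 1, 2 and 3, against 149, 198 and 71.4 CPM in I3C 1, 2 and 3. The lowest I3C library was thus far above the highest Sil library. The difference was -6.04 ± 0.82 (edgeR adjusted p = 0.00508). Cyp1a2, the neighbouring family member in the opposite orientation, had 0 counts in both groups and was not tested. Cyp1b1, the third member, was at 20.8, 31.6 and 11.8 CPM in Sil and 79.0, 39.3 and 67.4 CPM in I3C (-1.53 ± 0.31, edgeR adjusted p = 0.0876). It was not called by edgeR on all libraries, although the groups did not overlap. DESeq2 called it (adjusted p = 0.0004), as did edgeR without Sil 2 (-1.92, adjusted p = 0.0284) or without I3C 2 (-1.76, adjusted p = 0.0331). Those 2 libraries were the ones nearest to the other group, so leaving either out widens the gap. Without Sil 1, Sil 3, I3C 1 or I3C 3 the edgeR adjusted p was 0.157, 0.350, 0.270 and 0.293. Of 17 alternative fits, 3 called Cyp1b1.

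Nqo1, a quinone reductase that responds to both AhR and NRF2 (chromosome 8, 107388225 to 107403206), was at 4.43, 4.24 and 5.00 CPM in Sil, against 26.0, 23.0 and 36.6 CPM in I3C. The 3 Sil libraries lay within 1 CPM of each other, and the difference of -2.65 ± 0.24 had the smallest adjusted p of all genes (edgeR, 4.64e-05). Its paralog Nqo2 had a log2 difference of 0.19 (95% interval -0.17 to 0.55). Aldh3a1, an aldehyde dehydrogenase that detoxifies lipid-derived aldehydes (chromosome 11, 61207537 to 61218421), was at 21.7, 22.1 and 14.1 CPM in Sil, against 55.8, 45.3 and 59.7 CPM in I3C. That was a difference of -1.47 ± 0.19 (edgeR adjusted p = 0.0022).

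The list of AhR targets had 9 genes, of which 8 were tested. Of the 8, 3 were called lower in Sil (Cyp1a1, Nqo1 and Aldh3a1) and none higher, beside 0.0761% of all genes called lower. All 8 had log2 differences below 0, as did 52.1% of all genes. In all 8 every Sil library lay below every I3C library, as in 7.33% of all genes. The median log2 difference was -1.50, beside -0.01 over all genes tested. Ahrr, the receptor's repressor, stood at 0.738, 0.896 and 0.476 CPM in Sil and 2.42, 1.52 and 2.45 CPM in I3C (-1.59 ± 0.40, edgeR adjusted p = 0.239). The others were not called either: Gsta1 at -1.35 ± 0.38, the glucuronosyltransferase gene Ugt1a6a at -0.86 ± 0.30, and Tiparp, an ADP-ribosyltransferase that limits AhR, at -0.31 ± 0.13. The summed list was 105, 119 and 86.3 CPM in Sil and 395, 382 and 301 CPM in I3C. The transcripts of the receptor itself were near 0 in difference: Ahr was at 0.13 (95% interval -0.17 to 0.43) and its partner Arnt at 0.03 (-0.10 to 0.16).

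**Figure D2:**
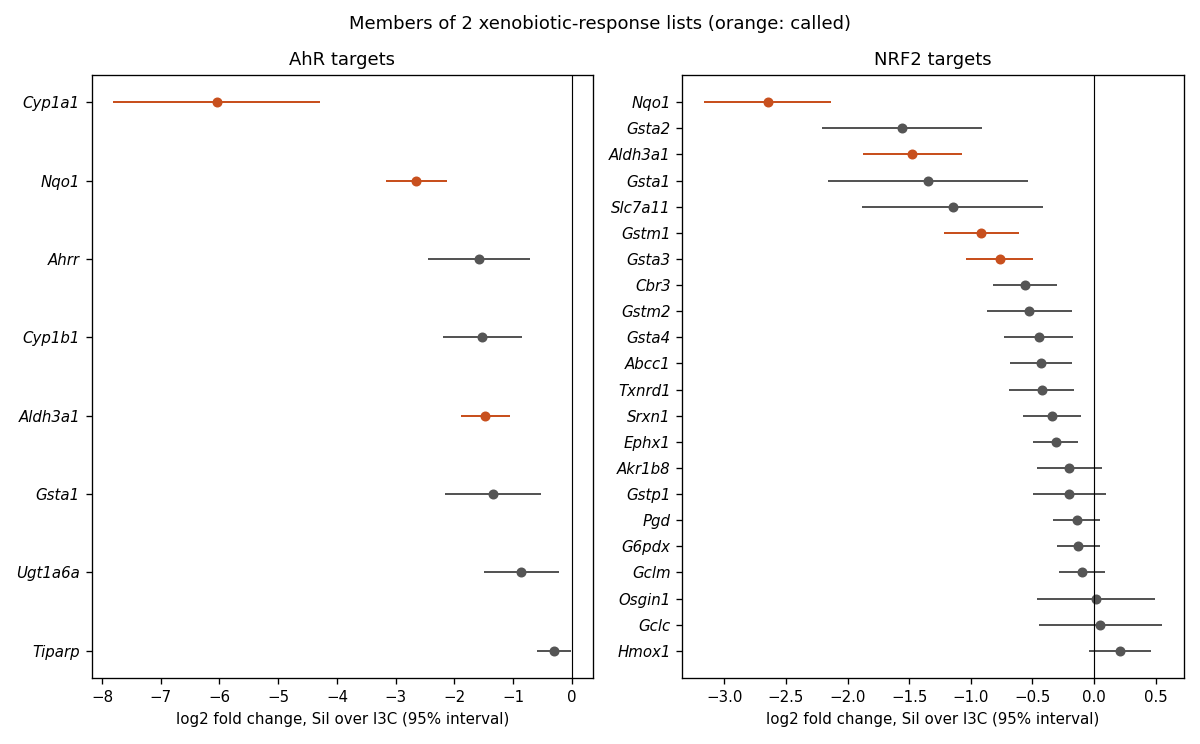
Log2 fold change of Sil over I3C with its 95% interval for the tested genes of the AhR target list (left, 8 genes) and the NRF2 target list (right, 22 genes), with called genes in orange. All 8 AhR targets and 19 of the 22 NRF2 targets lie below 0, and Nqo1, Aldh3a1 and Gsta1 are in both lists.

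Conjugating enzymes showed smaller differences. Genes named from here on that were neither called nor AhR targets were chosen after their values were seen. The same holds for Nqo2, Ahr, Arnt and Sftpc above. Gstm1, a mu-class glutathione S-transferase (chromosome 3, 108012255 to 108017973), was at 244, 240.3 and 272 CPM in Sil, against 408, 467 and 549 CPM in I3C (-0.91 ± 0.14, edgeR adjusted p = 0.0099). Gsta3, an alpha-class member (chromosome 1, 21240589 to 21265661), was at 89.9, 88.4 and 81.8 CPM in Sil, against 128, 159 and 156 CPM in I3C (-0.77 ± 0.13, edgeR adjusted p = 0.0140). Both differences were under 2-fold. No Sil library reached the lowest I3C library, which the calls on these same libraries make likely. All 7 mu-class and all 4 alpha-class genes tested had log2 differences below 0, with 1 of each class called. The uncalled ones ran from -0.21 for Gstm4 to -1.56 for Gsta2, which was at 2.15, 1.85 and 4.23 CPM in Sil and 5.41, 8.39 and 10.4 CPM in I3C (edgeR adjusted p = 0.0533). Close sequence within these families means that reads could be divided between members in a way not stated for these counts.

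Ugt1a6b, a phenol glucuronosyltransferase (chromosome 1, 88103252 to 88219003), stood at 37.1, 28.1 and 40.8 CPM in Sil, against 60.0, 62.3 and 89.2 CPM in I3C. The difference was -0.998 ± 0.16 (edgeR adjusted p = 0.0117). Genes of the Ugt1a locus share their 3′ exons, so counts of single members are uncertain, and of 9 tested 6 were below 0 and 1 was called. Gpx2, an epithelial glutathione peroxidase that reduces hydroperoxides (chromosome 12, 76792333 to 76795554), was at 10.2, 10.9 and 12.1 CPM in Sil, against 27.8, 23.1 and 32.1 CPM in I3C (-1.32 ± 0.19, edgeR adjusted p = 0.00508). Of the 6 glutathione peroxidase genes tested it was the 1 with a log2 difference below 0. The ubiquitous Gpx1 had a difference of 0.17 (95% interval -0.01 to 0.36).

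Of 22 NRF2 targets tested, edgeR called 4 lower in Sil (Nqo1, Aldh3a1, Gstm1 and Gsta3) and none higher, beside 0.0761% of all genes called lower. Of the 22, 11 were separated downwards (7.33% of all genes were), and the median was -0.43. Slc7a11, the cystine importer, was at 25.2, 15.0 and 11.6 CPM in Sil and 58.2, 24.99 and 32.0 CPM in I3C (-1.15 ± 0.34, edgeR adjusted p = 0.297), so Sil 1 lay above I3C 2. The thioredoxin reductase gene Txnrd1 was at -0.42 ± 0.12 and the carbonyl reductase gene Cbr3 at -0.56 ± 0.12, neither called by edgeR. DESeq2 called 6 of the list lower in Sil, Cbr3 and Gsta2 among them, beside 64 of all 15770 genes tested. Several other standard targets of NRF2 were close to 0. The glutathione synthesis genes Gclc and Gclm were at 0.05 (95% interval -0.44 to 0.54) and -0.10 (-0.27 to 0.08). Hmox1, heme oxygenase, was at 0.21 (-0.04 to 0.46), and Osgin1 at 0.02 (-0.46 to 0.49). Nfe2l2 and Keap1 were at 0.09 (-0.09 to 0.27) and 0.01 (-0.14 to 0.15).

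Ces1g and Ces1f are neighbouring carboxylesterase genes on chromosome 8, which hydrolyse ester drugs and lipids. Ces1g (93302369 to 93337308) was at 2.28, 2.45 and 7.20 CPM in Sil, against 36.3, 37.0 and 50.5 CPM in I3C, a difference of -3.37 ± 0.35 (edgeR adjusted p = 0.00024). Ces1f (93256236 to 93279747) was at 8.49, 5.85 and 9.52 CPM in Sil, against 32.2, 39.0 and 45.3 CPM in I3C (-2.29 ± 0.30, edgeR adjusted p = 0.00229). In both genes the I3C libraries were several times the highest Sil library. Of 8 genes of the cluster 5 were tested and all 5 were below 0. Ces1h, with 4 counts summed over Sil and 71 over I3C, was just past the threshold (-3.64 ± 0.69, edgeR adjusted p = 0.0517). Ces1d, at 532, 503 and 566 CPM in Sil and 611, 735 and 724 CPM in I3C, differed by -0.37 ± 0.13 and was not called, so the large differences were not shared by all members. Reads of these near copies may have been divided between them.

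Outside the CYP1 family, 18 enzymes of foreign-chemical metabolism were tested. Of these, 1, Ces1f, was called lower in Sil and none higher, beside 0.0761% of all genes called lower. Their median was -0.39 and 8 were separated downwards (7.33% of all genes were). Cyp2e1, which oxidises ethanol and small nitrosamines, was at 3.14, 3.82 and 2.50 CPM in Sil and 12.5, 10.5 and 6.97 CPM in I3C (-1.66 ± 0.39, edgeR adjusted p = 0.192). Cyp2a5, an enzyme that activates NNK in mouse, was at 179, 114 and 29.2 CPM in Sil and 220.2, 409 and 256 CPM in I3C (-1.46 ± 0.62, edgeR adjusted p = 0.438). Cyp2b10, a target of the receptor CAR, was at 0.23 (95% interval -0.24 to 0.69). Aldh1a1, a retinal dehydrogenase rich in airway epithelium, was at 997, 880 and 906 CPM in Sil and 1300.0, 1696 and 1361 CPM in I3C (-0.65 ± 0.12, edgeR adjusted p = 0.0533).

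Entpd5 and Tsku are not known as enzymes of foreign-chemical metabolism. Entpd5, a nucleoside diphosphatase of the endoplasmic reticulum that supports glycoprotein folding (chromosome 12, 84373857 to 84409029), was at 51.7, 47.4 and 40.3 CPM in Sil, against 78.5, 78.1 and 82.5 CPM in I3C (-0.78 ± 0.12, edgeR adjusted p = 0.0117). Tsku, a secreted leucine-rich protein (chromosome 7, 98350668 to 98361328), was at 16.1, 14.7 and 11.4 CPM in Sil, against 39.6, 30.5 and 31.0 CPM in I3C (-1.26 ± 0.20, edgeR adjusted p = 0.0111). Each was separated between the groups by a clear gap.

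Some calls rested on single libraries. Without Sil 3, 10 genes were called, 9 of them among the 12, and Tsku, Entpd5 and Gsta3 had adjusted p-values of 0.0869, 0.0869 and 0.116. Without I3C 3, 7 were called, and Ugt1a6b, Gstm1, Entpd5 and Gsta3 were among the 5 lost. Leaving out Sil 1, Sil 2 or I3C 1 moved the count to 22, 24 and 21, with 10 genes called higher in Sil in the fit without Sil 2. I3C 1 is the 1 I3C library in the mitochondrial ratio set of the Sil libraries. A fit with it as the only I3C library takes the spread from the other groups, assumes that I3C 1 varies as they do, and cannot tell diet from that library. In that fit 15 genes were called lower and none higher, and 5 of the 12 were among them: Cyp1a1 (-6.13), Ces1g (-3.17), Nqo1 (-2.50), Aldh3a1 (-1.52) and Tsku (-1.49). Tnfaip3, Bcl3 and Csf3, genes of inflammatory signalling, were among the genes called there and not in the fit to all libraries. Csf3, at 2.17 CPM in I3C 1 and 0.0435 and 0.156 CPM in I3C 2 and 3, rested on that library alone. The other 7 of the 12 ranged there from -0.55 for Gsta3 to -2.005 for Ces1f. All 12 lay below 0 in each of these fits, but they were picked from these same counts, so this is no separate support.

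**Figure D3:**
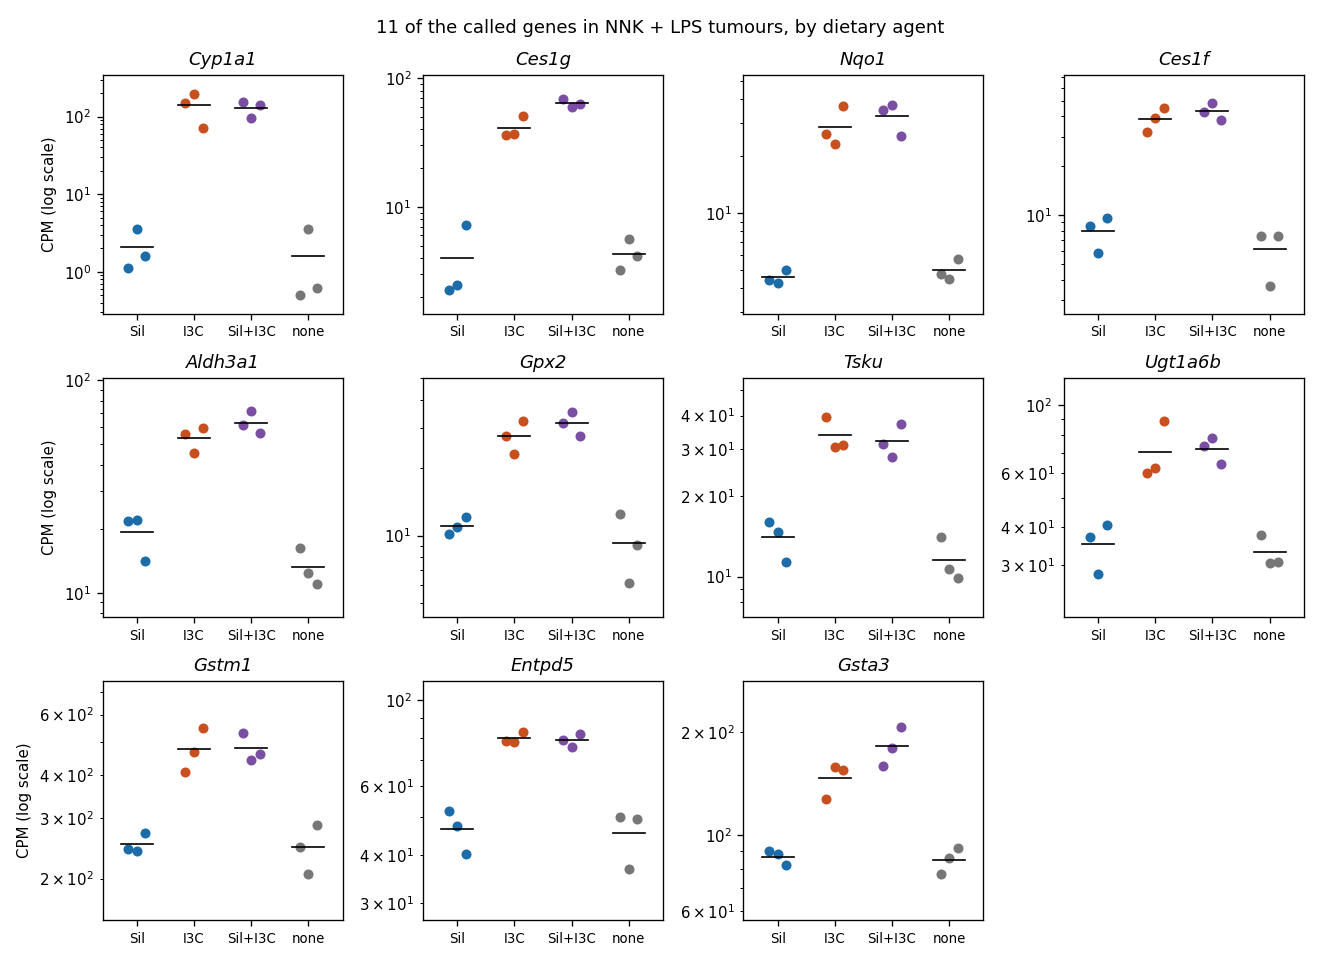
CPM on a log scale of 11 of the 12 called genes in each library of NNK + LPS tumours from mice given Sil, I3C, both (Sil+I3C) or neither agent (none, the NNK_LPS group), 3 dots a group, with the group mean as a bar. Cyp1a1 averaged 2.10 CPM in Sil, 139 CPM in I3C, 130.4 CPM in Sil_I3C and 1.58 CPM in NNK_LPS.

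Tumours of mice on neither agent gave the level without diet. Their libraries were in the mitochondrial ratio set of Sil and I3C 1. The 2 diets share these NNK_LPS libraries as their control, so their differences from it are set side by side and no overlap is read. Against NNK_LPS, Sil called 0 of 15770 genes by edgeR (578 at an unadjusted p under 0.05, and 0 by DESeq2), and I3C called 318 (2.02%), 193 higher (1.22%) and 125 lower. The genes given next were picked by their difference between these same Sil and I3C libraries. That pick favours differences from NNK_LPS in advance, so they are no separate support. Cyp1a1 differed from NNK_LPS by 0.45 ± 1.03 in Sil and by 6.50 ± 0.86 in I3C. Nqo1 differed by -0.12 ± 0.25 in Sil and by 2.52 ± 0.24 in I3C, and Ces1g by -0.12 ± 0.36 in Sil and by 3.25 ± 0.35 in I3C. For Aldh3a1 the differences were 0.55 ± 0.19 in Sil and 2.03 ± 0.19 in I3C, and for Gsta3 they were 0.03 ± 0.13 in Sil and 0.80 ± 0.13 in I3C. The count of 318 depended on single libraries, being 951 without Sil 3, 40 without I3C 1, 35 without I3C 3, and 794, 21 and 498 without NNK_LPS 1, 2 and 3.

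Levels in Sil_I3C tumours were mostly in or near the range of the I3C libraries. Nqo1 was at 34.9, 37.1 and 25.4 CPM, Gpx2 at 31.7, 35.4 and 27.8 CPM, and Entpd5 at 79.1, 75.6 and 81.8 CPM in these 3 libraries. Ces1g was above every I3C library, at 68.9, 59.7 and 63.3 CPM. These are levels with no test, in libraries of the mitochondrial ratio set of I3C 2 and 3, so diet was not told apart from set.

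Just outside the threshold lay 11 genes with adjusted p-values of 0.0517 or 0.0533, chosen here after their values were seen. Of these, 10 were lower in Sil, namely Ces1h, Gsta2, Aldh1a1, Clec3b, Gm10260, Kcnj3, Txlnb, Mybpc3, Nppa and Myl3. Mybpc3, Myl3 and Nppa are genes of heart muscle (a myosin-binding protein, a myosin light chain and the atrial natriuretic peptide). Mybpc3 was at 2.21, 1.25 and 0.893 CPM in Sil and 5.78, 6.56 and 5.38 CPM in I3C. Tmc3, a membrane protein gene, was the 1 of the 11 higher in Sil, at 0.800, 0.418 and 1.13 CPM against 0.124, 0.130 and 0.195 CPM in I3C (2.30 ± 0.44). Gm10260 was at 1.05, 1.02 and 0.655 CPM in Sil and at 1.49, 5.39 and 5.92 CPM in I3C, so that I3C 1 was the low one and I3C 2 and 3, of the other mitochondrial ratio set, were high.

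Of 51 gene lists with 662 tested genes, 3 held a called gene, the AhR, NRF2 and foreign-chemical lists described above, which covered 6 of the 12. No gene of the other 48 lists was called by edgeR in the main fit. Among cell cycle genes 28 of 30 were above 0, 9 were separated upwards (5.92% of all genes were), and the median was 0.31. At an edgeR unadjusted p under 0.05, 3 of the 30 were higher in Sil (4.83% of all genes were). Their summed level was 672, 660.1 and 924 CPM in Sil and 653, 680 and 684 CPM in I3C, so that Sil 3 alone lay above the I3C range. Bub1, a spindle checkpoint kinase, was at 3.26, 3.40 and 7.44 CPM in Sil and 2.42, 2.91 and 2.77 CPM in I3C (0.80 ± 0.31, edgeR adjusted p = 0.392).

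Alveolar type 2 genes were above 0 in 15 of 17, with 10 separated upwards (5.92% of all genes were). Of the 17, 12 were higher at an edgeR unadjusted p under 0.05 (4.83% of all genes were), and the median was 0.39. The whole list summed to 62253, 52486 and 78374 CPM in Sil and 48321, 46867 and 46478 CPM in I3C, which do not overlap. In NNK_LPS the sums were 70924, 79039 and 58193 CPM, and in Sil_I3C 48255, 49298 and 45518 CPM. Sftpd, a collectin of surfactant, was at 2044, 1491 and 2415 CPM in Sil and 1352, 1213 and 1188 CPM in I3C (0.67 ± 0.18, edgeR adjusted p = 0.254). Among alveolar macrophage genes the scavenger receptor gene Marco was at 8.49, 8.18 and 34.8 CPM in Sil and 4.23, 4.04 and 7.44 CPM in I3C (1.70 ± 0.49, edgeR adjusted p = 0.285), with most of the difference in Sil 3. In bulk tissue fewer cells of a type and less RNA per cell cannot be told apart.

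Inflammatory cytokines and chemokines were below 0 in 22 of 25, with a median of -0.74, yet 1 gene was separated and none was called. Their sums of 113, 205 and 146 CPM in Sil and 367, 108 and 181 CPM in I3C overlapped, and I3C 1 was the high one. Cxcl1, a neutrophil attractant, was at 3.02, 3.70 and 7.02 CPM in Sil and 49.8, 2.78 and 5.65 CPM in I3C. The NF-kB inhibitor gene Tnfaip3 was likewise high in I3C 1, at 37.5, 58.0 and 32.1 CPM in Sil and 141, 42.2 and 54.0 CPM in I3C. The interferon response and p53 target lists had medians of -0.03 and 0.03. T cell genes had a median of -0.55 and all 13 were below 0, with 1 separated downwards, beside 7.33% of all genes.

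**Figure D4:**
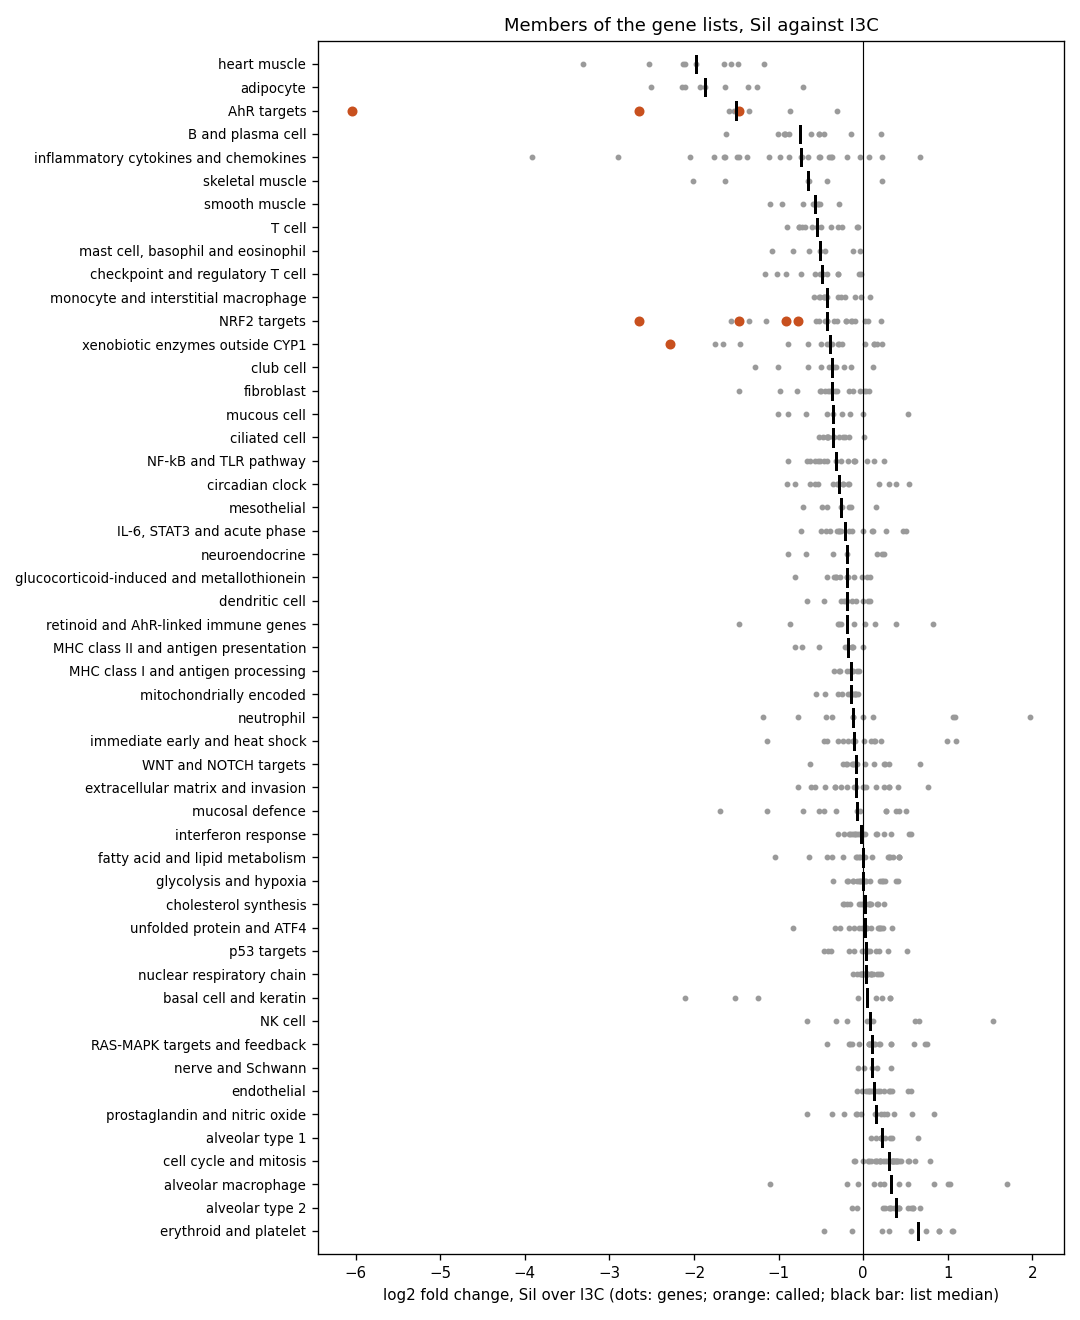
Log2 fold change of Sil over I3C for each tested gene of the 51 lists (dots, called genes in orange), with the list median as a black bar and lists ordered by median. Called genes appear in 3 lists, and the medians run from -1.98 for heart muscle to 0.65 for erythroid and platelet genes.

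Heart muscle and fat markers were the lowest lists in Sil relative to I3C, with none of their genes called by edgeR in the main fit. Without Sil 1, edgeR called Myh6, and DESeq2 on all libraries called Myh6 and Nppa among others. Mybpc3, a heart muscle gene outside the list, was called by edgeR without Sil 1 and with no filter on low counts. All 9 heart muscle markers tested, of 10 listed, were separated downwards (7.33% of all genes were), with a median of -1.98. Their summed level was 247, 80.6 and 104 CPM in Sil and 396, 577 and 463 CPM in I3C. In Sil_I3C it was 148, 284 and 116 CPM, and in NNK_LPS 168, 88.0 and 88.1 CPM. Myh6, the atrial myosin heavy chain, was at 137, 43.8 and 70.2 CPM in Sil and 212, 295 and 236 CPM in I3C. The 9 adipocyte markers had a median of -1.88 with 5 separated, and summed to 46.9, 44.2 and 22.0 CPM in Sil and 131, 138 and 55.8 CPM in I3C. They summed to 28.4, 31.6 and 21.5 CPM in Sil_I3C and 49.5, 12.6 and 11.8 CPM in NNK_LPS. No marker of either list was at 0 in all 6 libraries. Smooth muscle markers were all 10 below 0, with 7 separated downwards and a median of -0.58. They summed to 483, 517 and 266 CPM in Sil and 608, 677 and 601 CPM in I3C, with no overlap. Club cells are airway cells rich in enzymes of foreign-chemical metabolism, and 9 of their 10 markers were below 0, with 4 separated downwards and a median of -0.37. Their sums of 24886, 25196 and 28389 CPM in Sil and 27892, 29710.0 and 37581 CPM in I3C overlapped. Scgb1a1, the secretoglobin that defines club cells, had a difference of -0.22 (95% interval -0.63 to 0.18).

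The marker medians of heart muscle, fat, smooth muscle and club cells lay in the same direction as the 12 called genes. So did those of other cell type lists, such as B and plasma cell (-0.75), skeletal muscle (-0.65) and T cell (-0.55). Medians above 0 were those of alveolar type 2 and type 1, basal and keratin, endothelial, alveolar macrophage, NK, erythroid and platelet, and nerve lists. With the mean heart muscle marker level as a covariate, added after seeing the data, 2 genes were called, Ces1g (-4.06) and Nqo1 (-2.50). Cyp1a1 was at -7.55 ± 1.31 (edgeR adjusted p = 0.166). All 12, picked from these same counts, were below 0 at an unadjusted p under 0.05 in that fit. With adipocyte markers as the covariate, 6 were called, Cyp1a1, Ces1g, Nqo1, Ces1f, Aldh3a1 and Gsta3. In Sil_I3C the heart muscle and adipocyte sums overlapped those of Sil, and Ces1f stood at 42.6, 48.6 and 38.2 CPM. These libraries were in the mitochondrial ratio set of I3C 2 and 3. What these levels owe to tissue, diet or set was not tested. Both marker sums were separated between Sil and I3C, so the covariate fits cannot cleanly tell heart or fat tissue from diet. The part of these tissues, smooth muscle, club cells or other cell types in the differences was not tested.

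**Figure D5:**
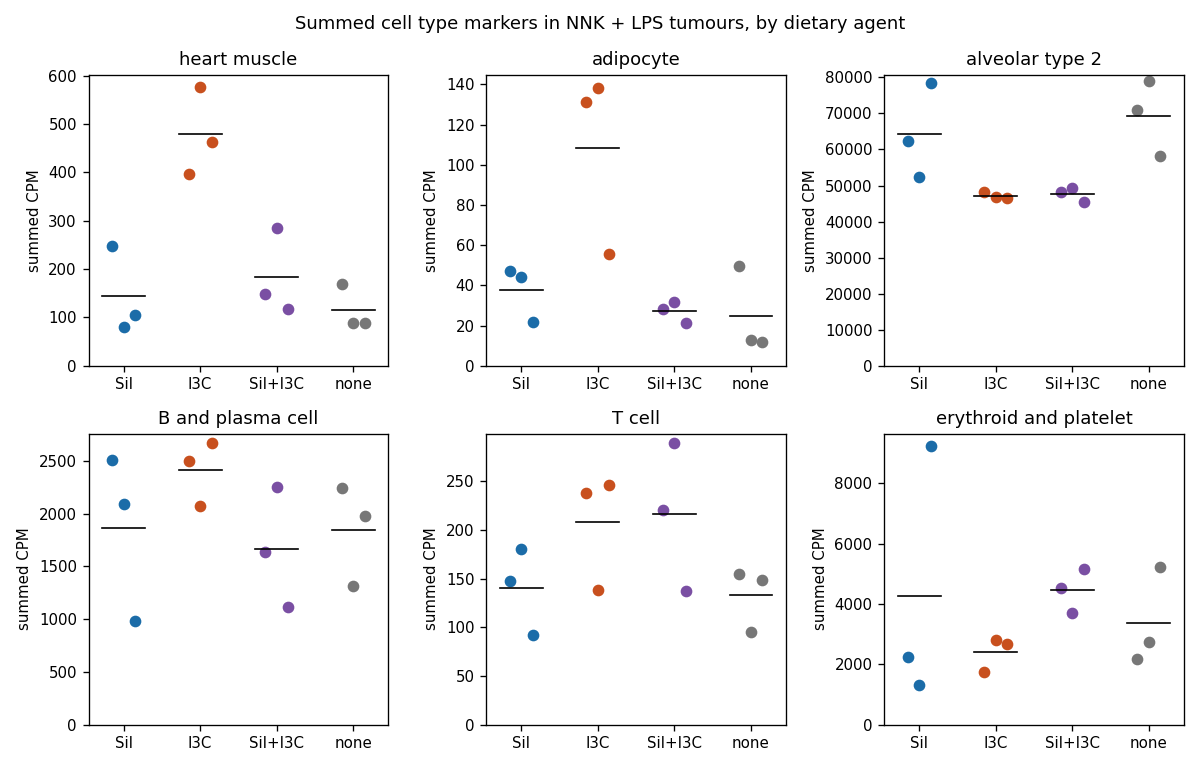
Summed CPM of 6 cell type marker lists in each library of NNK + LPS tumours from mice given Sil, I3C, both agents (Sil+I3C) or neither (none, the NNK_LPS group), with the group mean as a bar. Heart muscle and adipocyte sums are higher in I3C than in Sil in every library, alveolar type 2 sums are lower, and Sil 3 is the high erythroid library at 9249 CPM.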

How the data were processed

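RNA of mouse lung tumours was sequenced after TruSeq version 2 library preparation, per the labels' protocols. The authors deposited whole-number read counts per gene symbol for 21 libraries (38924 symbols, 16756 at 0 in every library). The submitters' processing notes name mm10. The aligner, the counter, its annotation and any strand option were not given in the sources used here, so overlapping or near-identical genes carry that uncertainty. Libraries are numbered 1 to 3 within a group in sample order.

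From the counts, edgeR 4.0.16 in R 4.3.3 was run with trimmed mean of M-values scaling, filterByExpr with a minimum count of 10, and a robust quasi-likelihood fit to all 7 groups, which share the estimate of spread (14 residual degrees of freedom, common biological coefficient of variation 0.168). Benjamini-Hochberg adjustment ran over the 15770 genes tested, with calls under 0.05. The fit was tested on simulated data. Replicates differed beyond sampling noise (chi-square per degree of freedom 13.1 to 57.6), and none was merged. Lists are described by counts and medians. Alternatives were other size factors, no filter, DESeq2 1.42.0, fewer libraries, a block, a term for the mitochondrial ratio set, thinned counts and marker covariates. Genes were named if called, separated between the groups and at a mean of at least 1 CPM (up to 12 each way), as called list members, or as AhR targets; others are marked. Of the called genes, 1 is not reported here. The members and lists were chosen with earlier results of these data known. Gene coordinates are from GENCODE (GRCm38).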

Additional observations from a re-analysis of the deposited data

How the results depend on the processing

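The 12 genes called lower in Sil than in I3C were all called again with relative log expression size factors (12 called), no filter on low counts (16) and thinned counts (16, 1 of them higher in Sil). DESeq2 called 86, 64 lower and 22 higher, with 17 genes of the lists, and 1042 for I3C over NNK_LPS. The fit to Sil and I3C alone called 0, 0 of them in the lists. Leaving out 1 library gave 7 to 24 calls, 7 to 22 lower and 0 to 10 higher, and 21 to 951 for I3C over NNK_LPS. With I3C 1 as the only I3C library, I3C over NNK_LPS gave 79 calls, 8 of them named genes (15 in all libraries). With a term for the mitochondrial ratio set it gave 60, again 8 named, and Sil over I3C gave 13, with 5 of the 12. The heart muscle covariate left 2 calls, both lower and 1 in the lists, and 1 for I3C over NNK_LPS, a named gene. The adipocyte covariate left 6, all lower, and 4 for I3C over NNK_LPS, all named. The cause of these shifts was not tested. Most named genes were picked from these same Sil and I3C libraries, so their calls for I3C over NNK_LPS are no separate support.

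The library numbers follow sample order and pair nothing: deviations of same-numbered Sil and I3C libraries correlated at 0.24, -0.25 and -0.07. With that number as a replicate block, the fit to both groups alone called 0 genes (1027 at an unadjusted p under 0.05, 0 in the lists), and the fit to all groups called 15, 1 of them higher in Sil. In every alternative run all 12 genes lay below 0. All 12 had an unadjusted p under 0.05 in every run with more than 1 library in each group. They were picked from these same counts, so this is no separate support. Nqo1 ranged from -2.77 to -2.40 and Cyp1a1 from -7.55 to -5.69. With 3 libraries a group, genes of few counts, such as Gsta1 (42 counts summed in Sil) or Ahrr (35), have wide intervals, and their missing calls do not show equal levels.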
